A study of Mus musculus with 44 samples.

Results

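Histone H3 monomethylated at lysine 4 (H3K4me1) was measured by ChIP-seq around gene starts in HPC7 cells that carried a Snai1 mutant impaired in binding the demethylase Lsd1, and was set against cells that carried the empty vector. The comparison rests on 6 libraries, 3 of mutant cells and 3 of empty-vector cells, of 44 samples in the series. They were chosen by their construct, antibody and replicate labels, and all gene windows were used. HPC7 cells are blood progenitors of mouse origin that need stem cell factor to grow. Cells were transduced with the retroviral vector MSCV-IRES-GFP holding either mutant Snai1 (a phenylalanine-to-alanine substitution) or no gene, sorted for GFP 1 week after transduction and expanded. Both groups therefore carried the same vector and passed the same sort. Further libraries of cells with wild-type Snai1 in the same vector entered the model to estimate the spread (3 for H3K4me1) or served as background (2 IgG). The labels do not say whether replicates came from separate transductions or cultures, so p-values measure only the spread between these libraries, which may be technical. The mutant Snai1 is expressed from a viral promoter, beside any endogenous Snai1. The libraries are of bulk cells, in which fewer cells with a mark and less of the mark per cell cannot be told apart.

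H3K4me1 marks enhancers and the flanks of active promoters. Lsd1, the product of Kdm1a, removes methyl groups from monomethylated and dimethylated lysine 4 as part of repressor complexes. Snai1 is a zinc-finger repressor of epithelial genes. It holds Lsd1 through its amino-terminal SNAG domain, a domain also found in the blood repressors Gfi1 and Gfi1b. The comparison thus asks how H3K4me1 differs with a Snai1 that binds Lsd1 poorly.

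Counts over all windows summed to 8813537, 5381773 and 4042976 in mutant replicates 1, 2 and 3, and to 7082285, 5310661 and 5616584 in empty-vector replicates 1, 2 and 3. The median window held at most 201 reads in mutant libraries and 171 in empty-vector libraries. Windows of 8 progenitor genes (Kit, Gata2, Tal1, Lyl1, Lmo2, Runx1, Fli1 and Erg) had a median of 76.7 to 142 corrected CPM (reads per 1e6 reads, after the correction by chromosome given below) in mutant libraries and 96.4 to 124 CPM in empty-vector libraries. Windows of olfactory and vomeronasal receptor genes, which blood cells do not express, had a median of 1.77 to 3.82 CPM and 2.49 to 3.18 CPM in the same groups. Lymphoid genes had 39.1 to 45.7 CPM and 39.6 to 44.0 CPM, so windows of genes of other blood lineages were not free of the mark. The mutant Snai1 ChIP gave 12037 peaks and the empty-vector Snai1 ChIP 137, each in 1 list made from 4 technical replicates.

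Replicate 1 stood apart from replicates 2 and 3 in both groups. The variance between 2 libraries, in units of counting error, was 15 to 21.4 between mutant replicate 1 and the other mutant replicates, and 11.5 to 11.9 between empty-vector replicate 1 and the others. It was 1.3 between mutant replicates 2 and 3. Empty-vector replicates 2 and 3 differed by less than the sampling noise (0.982) and were counted as 1 sample in the tests. Mutant and empty vector differed by 2.74 within replicate 1, and by 5.16 to 6.57 across replicates 2 and 3. Housekeeping windows exceeded silent windows 50.7-fold, 15.9-fold and 20.8-fold in mutant replicates 1, 2 and 3, against 32.9-fold, 23.7-fold and 21.9-fold in empty-vector replicates 1, 2 and 3, and 2.53-fold and 1.23-fold in the IgG libraries. Mutant replicate 1 thus had the widest range between marked and unmarked windows of the 6 libraries, and mutant replicate 2 the narrowest. For this reason the difference of replicate 1 is given apart from that of replicates 2 and 3 pooled, each as mutant minus empty vector in log2 CPM. Mutant replicates 2 and 3 stayed separate samples in the test, so replicate 1 weighs more in the empty-vector mean than in the mutant mean. The log2 difference over all libraries can thus lie outside both, as at Vwf (0.44, against 0.53 and 0.58). Counts of positive genes and list medians carry this as well.

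Whole chromosomes differed between mutant and empty-vector cells in replicates 2 and 3 and hardly in replicate 1. The largest shifts in replicates 2 and 3, relative to the median of all windows, were 0.46 on chromosome 12, 0.37 on chromosome 8, 0.20 on chromosome 2, 0.14 on chromosome 17 and 0.12 on chromosome 19 (log2, mutant higher). The lowest was -0.11, on chromosome 15. In replicate 1 all 20 chromosomes lay between -0.05 (chromosome 18) and 0.05 (chromosome 11). The H3K4me2 libraries had shifts of 0.48, 0.28, 0.18, 0.10 and 0.05 on chromosomes 12, 8, 2, 17 and 19 in replicates 2 and 3. Library by library, the chromosomes differed in which construct stood apart. On chromosome 12 the shifts were 0.10, 0.10 and 0.09 in mutant replicates 1, 2 and 3, against 0.10, -0.37 and -0.36 in empty-vector replicates 1, 2 and 3, and 0.08, 0.11 and 0.11 in wild-type Snai1 cells, so the empty-vector replicates 2 and 3 were the low ones. On chromosome 8 mutant replicates 2 and 3 (0.17 and 0.17) stayed close to all replicates 1, against -0.20 and -0.21 in empty-vector and -0.31 and -0.31 in wild-type replicates 2 and 3. On chromosome 2 mutant replicates 2 and 3 alone were high (0.19 and 0.18), against -0.00 and -0.02 in empty-vector replicates 2 and 3. These shifts were taken out of every value below unless another correction is named.

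**Figure D1:**
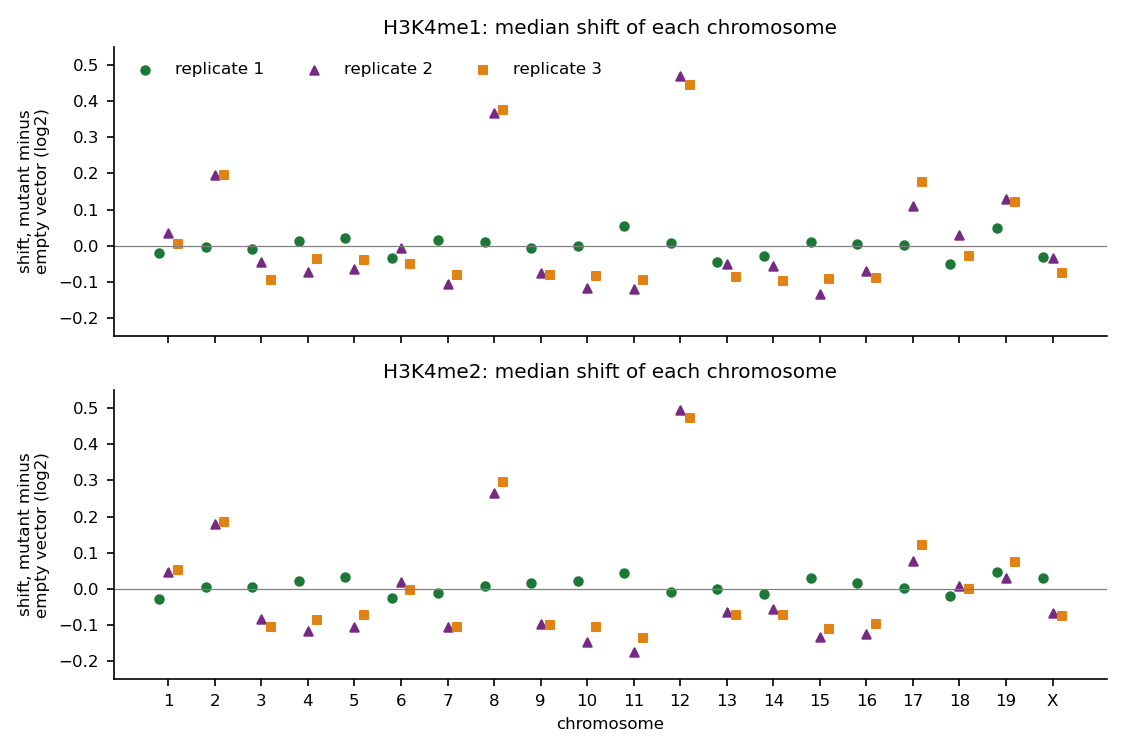
Median shift of each chromosome, mutant minus empty vector, in log2 units (vertical axis) by chromosome (horizontal axis), for H3K4me1 (top) and H3K4me2 (bottom); each point is 1 replicate number. Replicates 2 and 3 lie together at 0.46 on chromosome 12 for H3K4me1 while replicate 1 stays near 0 on every chromosome.

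Stretches of at least 20 windows whose median differed from the rest of their chromosome by at least 0.3 were found in H3K4me1 replicates 2 and 3 on 6 chromosomes. Those on chromosomes 11 and 12 were found in H3K4me2 as well and are the ones meant by correction by stretch. Those on chromosomes 1 (0.33 inside and 0.02 outside), 10 (-0.50 and -0.08), 14 (0.22 and -0.08) and 17 (0.51 and 0.15) were found in H3K4me1 alone and were not corrected. On chromosome 12, the 359 windows of chr12:3247428-91849157 (Rab10 to Sel1l) had a median H3K4me1 difference of 0.64 in replicates 2 and 3, against 0.06 in the rest of the chromosome. The next window, of Galc, begins at position 98202287. H3K4me2 gave 0.66 inside and 0.14 outside, with the same first and last gene. In replicate 1 the stretch had 0.00 for H3K4me1. On chromosome 11, the 187 windows of chr11:61022564-72927120 (Kcnj12 to Zzef1) had a median of -0.41 in replicates 2 and 3, against -0.06 in the rest, and -0.46 for H3K4me2. In that stretch 173 windows were lower and 14 higher in mutant replicates 2 and 3, against 65 lower and 122 higher in replicate 1. Mutant replicates 2 and 3 were lower there than mutant replicate 1 by a median of -0.57 on the log2 scale, while the same difference among empty-vector libraries was -0.04. The stretch holds Trp53, the gene of the tumour suppressor p53, which was chosen after its values were seen and whose start lies within 5 kb of that of Wrap53. Its window had 115, 93.9 and 98 CPM in mutant replicates 1, 2 and 3, against 105, 92.5 and 100 CPM in empty-vector replicates, after removal of the whole-chromosome shift. The log2 difference of Trp53 was 0.02 by chromosome, 0.25 by stretch and 0.27 with a running median over neighbouring windows. The coordinates are of gene starts and ends in RefSeq on GRCm38.p6, and the stretches were delimited after the data were seen. Correction by chromosome takes too much from windows beyond the chromosome 12 stretch, so values corrected by stretch are given beside windows that lie there.

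**Figure D2:**
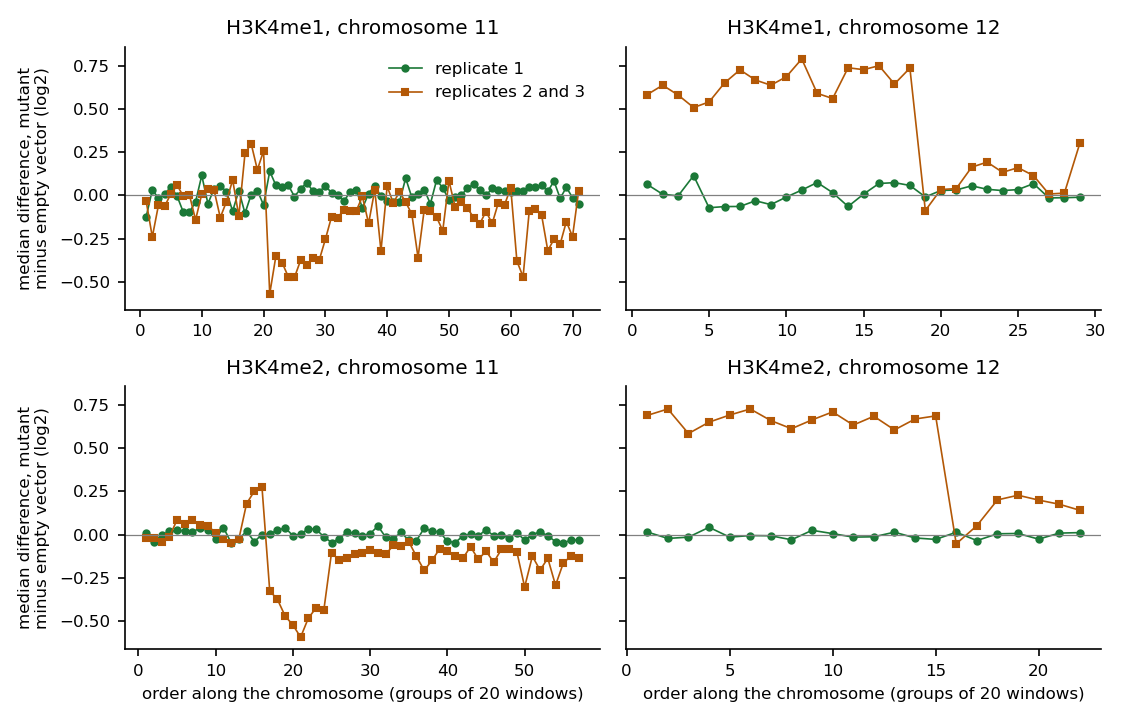
Median difference, mutant minus empty vector in log2 CPM before removal of chromosome shifts (vertical axis), over groups of 20 consecutive windows in order along chromosomes 11 and 12 (horizontal axis), for H3K4me1 (top) and H3K4me2 (bottom). In replicates 2 and 3 the line steps at the same place in both marks, with medians of 0.64 and 0.66 in the chromosome 12 stretch, while replicate 1 stays near 0.

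The difference also followed the level of the window, in opposite directions in replicate 1 and in replicates 2 and 3. In the lowest of 10 equal groups of windows by level (median 2.54 CPM) the median difference was -0.35 in replicate 1 and 0.15 in replicates 2 and 3. In the highest group (median 112 CPM) it was 0.18 in replicate 1 and -0.13 in replicates 2 and 3. Windows of silent receptor genes had -0.41 and 0.20 in the same order. The 15 genes of the mitochondrial genome, which has no nucleosomes, were lower in mutant cells in 15 of 15 cases in replicate 1 (median -0.74) and in 15 of 15 in replicates 2 and 3 (median -0.46). The part of signal over background in the differences was not tested. A scaling that follows the level, chosen after the data were seen, is given beside results that it moves.

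**Figure D3:**
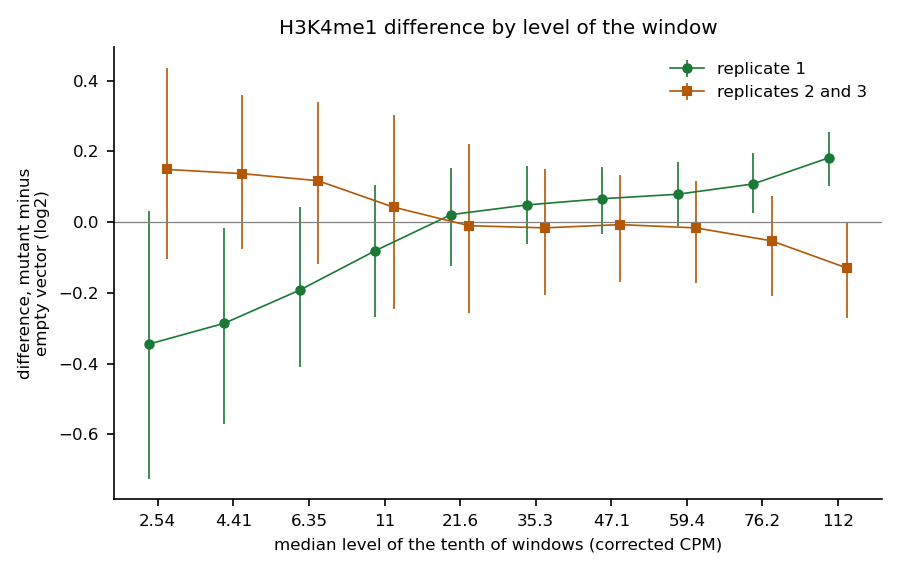
Difference in H3K4me1, mutant minus empty vector in log2 CPM (vertical axis), by the median level of each of 10 equal groups of windows in corrected CPM (horizontal axis); points are medians and bars the quartiles. Replicate 1 runs up to 0.18 and replicates 2 and 3 run down to -0.13 in the highest group.

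Over single windows, no gene start passed the test for H3K4me1. This test has no term for replicate 1 against replicates 2 and 3, so that difference counts as spread between libraries. Through the unequal weight of replicate 1 it also enters the log2 differences in part. A window that did not pass is thus not shown to be unchanged. Of 25728 windows tested with edgeR's quasi-likelihood test, 0 (0.0%) had an adjusted p under 0.05, and 364 (1.41%) had an unadjusted p under 0.05, 221 (0.859%) higher and 143 (0.556%) lower in mutant cells. DESeq2 also called 0, with 338 at an unadjusted p under 0.05. The 3 mutant libraries were all above the 3 empty-vector libraries at 1188 windows (4.62%) and all below at 734 (2.85%). Taking the windows above the level floor of 5.78 CPM, which is 2 times the silent median, the difference in replicate 1 had the same sign as that in replicates 2 and 3 at 42.5% of 19923 windows, or 46.1% when scaled by level. A difference of 2-fold or more was seen at 26 of them (0.131%) in replicate 1, at 380 (1.91%) in replicates 2 and 3, and at 0 in both with the same sign.

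Replicates 2 and 3 taken alone gave a different count. There 5084 of 25750 windows (19.7%) passed, 2032 higher and 3052 lower in mutant cells, with a spread between replicates close to counting error. Of these, 37.4% had the same sign in replicate 1, or 45.3% when scaled by level. Without mutant replicate 1, with the 2 remaining mutant libraries against both empty-vector samples, 33 windows passed, 17 higher and 16 lower. Among those with the smallest p were Csf1r and Mrc1, a myeloid growth factor receptor and a mannose receptor of macrophages, and Gypc, a red cell membrane glycoprotein. Csf1r had 182, 67.9 and 70.2 CPM in mutant replicates 1, 2 and 3, against 147, 143 and 145 CPM in the empty-vector replicates. Its mutant replicate 1 was thus the highest of the 6 libraries, and mutant replicates 2 and 3 were the lowest.

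With a term for replicate 1 against replicates 2 and 3 summed, 5 of 25893 windows (0.0193%) passed, 3 higher and 2 lower in mutant cells, and 567 (2.19%) had an unadjusted p under 0.05. Of these, 5330413P13Rik, a transcript of unknown function at chr2:131820006-131847656, had 46.5, 70.0 and 68.6 CPM in mutant replicates 1, 2 and 3, against 33.7, 20.7 and 21.2 CPM in the empty-vector replicates (log2 difference 1.11 ± 0.18 (SE) in that fit, adjusted p = 3.24e-05). All mutant libraries were above all empty-vector libraries, with log2 differences of 0.46 in replicate 1 and 1.72 in replicates 2 and 3. Its mean in wild-type Snai1 cells was 51.3 CPM, between the means of mutant (61.7 CPM) and empty-vector cells (27.3 CPM). In replicates 2 and 3 the wild-type mean was 45.9 CPM, between 69.3 CPM in mutant and 21.0 CPM in empty-vector cells. Wild-type replicate 1 was thus above 51.3 CPM, and so above mutant replicate 1. The other 2 higher windows carry gene IDs that RefSeq's table does not name (100503008 and 100502594). Nudt16l1, whose product holds the repair factor 53BP1 away from DNA breaks, and Tifab, an inhibitor of TRAF6 signalling, were the 2 lower windows (log2 differences -0.86 and -0.82, adjusted p = 0.0198 and 0.048). Both also stand below among the windows with the smallest p. With level-dependent scaling and the same term 0 windows passed, with 666 at an unadjusted p under 0.05.

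At the genes of Snai1, Lsd1 and the related repressors, the named values were as follows, and none passed the test. The Snai1 window had 124, 65.5 and 66.4 CPM in mutant replicates 1, 2 and 3, against 95.7, 61.5 and 63.3 CPM in the empty-vector replicates (log2 difference 0.11 ± 0.28 (SE), adjusted p = 1.0). In both groups replicate 1 was high and replicates 2 and 3 were lower, and the groups overlapped. The count covers the native start and does not measure the transgene. Kdm1a had 46.2, 48.8 and 47.0 CPM in mutant cells, against 43.5, 47.4 and 47.3 CPM (log2 difference 0.05 ± 0.16). Gfi1b, a SNAG repressor of red cell and platelet development, had 208, 119 and 124 CPM in mutant cells, against 156, 151 and 142 CPM (log2 difference -0.01 ± 0.25). Its difference was 0.41 in replicate 1 and -0.28 in replicates 2 and 3, so the replicates had opposite signs.

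Gfi1, a SNAG repressor that restrains alternative fates in myeloid cells, was the one of these 4 whose libraries did not overlap. Its window, at chr5:107716655-107725805 by gene ends, had 56.7, 40.6 and 44.5 CPM in mutant replicates 1, 2 and 3, against 69.4, 85.2 and 80.7 CPM in the empty-vector replicates. All 3 mutant libraries were the lower ones. The log2 difference was -0.69 ± 0.21 (SE), with an adjusted p of 1.0 by edgeR, so it did not pass. The difference was -0.31 in replicate 1 and -0.97 in replicates 2 and 3, or -0.40 and -0.94 when scaled by level, and leaving out any one library gave -0.84 to -0.59. H3K4me2 at the same window differed by -0.49 in replicate 1 and -1.24 in replicates 2 and 3. Wild-type Snai1 cells averaged 61.8 CPM for H3K4me1, with 78.5, 52.9 and 54.0 CPM in replicates 1, 2 and 3. In replicate 1 they lay above both groups. In replicates 2 and 3 they lay between the groups, nearer to the mutant.

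The 10 windows with the smallest p among those higher in every mutant library belonged to Unc5cl, Tspan15, Ankrd65, Tmod1, Mas1, Actr5, Got1l1, Tspo2, Nectin2 and Hbb-bs. Unc5cl, a death-domain protein, and Tspo2, a cholesterol-binding protein of red cell precursors, have starts within 5 kb of each other on chromosome 17 and can share reads. Unc5cl had 43.0, 63.5 and 68.1 CPM in mutant replicates 1, 2 and 3, against 34.3, 25.2 and 28.9 CPM in the empty-vector replicates (log2 difference 0.91 ± 0.22, adjusted p = 1.0 by edgeR). Tspan15, a tetraspanin that guides the protease ADAM10, had 14.7, 32.0 and 33.5 CPM in mutant cells, against 10.9, 11.2 and 10.7 CPM (1.27 ± 0.35). Tmod1, which caps actin filaments in the red cell skeleton, had 24.2, 38.8 and 48.2 CPM in mutant cells, against 17.4, 20.1 and 19.3 CPM (0.99 ± 0.28). In all of them mutant replicates 2 and 3 were the high libraries, and mutant replicate 1 lay closer to the empty vector. The 2 IgG libraries, scaled to their total counts, had 68.9 and 55.3 CPM at Unc5cl and 49.2 and 40.6 CPM at Tmod1. At Tspan15 they had 43.8 and 41.7 CPM, above all 6 H3K4me1 libraries. These windows were thus not shown to stand above IgG. At Actr5 (43.2 and 46.4 CPM) and Nectin2 (43.2 and 31.7 CPM) IgG lay below every mutant library. Hbb-bs, an adult beta globin gene with near copies beside it, had 8.34, 17.8 and 14.1 CPM in mutant cells, against 6.60, 4.81 and 3.34 CPM (1.33 ± 0.40). It was the only one of the 10 under 10 CPM in each empty-vector library.

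Actr5, a subunit of the INO80 remodeller, had 68.6, 86.0 and 97.1 CPM in mutant cells, against 60.9, 41.8 and 44.4 CPM (0.69 ± 0.20). Mas1, a receptor for an angiotensin peptide, had 69.0, 67.3 and 72.4 CPM in mutant cells, against 53.3, 36.6 and 39.1 CPM (0.61 ± 0.17). Here the mutant libraries lay together and the empty-vector libraries were spread. Mas1 lies in the chromosome 17 stretch, chr17:12378609-14943259, where 20 of 20 windows were higher in mutant replicates 2 and 3 (median 0.51, against 0.15 in the rest), so the correction by chromosome leaves part of a regional shift in its value. With the running median its difference was 0.58. That median spans more windows than the stretch holds, so it cannot follow a shift this short. Whether the difference of Mas1 remains once the regional shift is removed was thus not tested. Nectin2, a cell adhesion protein, had 59.0, 61.2 and 70.0 CPM in mutant cells, against 48.1, 33.2 and 35.6 CPM (0.62 ± 0.18). Got1l1 and Ankrd65 had log2 differences of 0.69 ± 0.20 and 0.98 ± 0.28.

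The 10 with the smallest p among those lower in every mutant library belonged to Igkv14-111, Ackr3, Gbp10, Gbp11, Tff1, Septin3, Nudt16l1, Gfi1, Tnfrsf1b and Tifab. Ackr3, a receptor that scavenges the chemokine Cxcl12, had 44.7, 27.5 and 31.1 CPM in mutant replicates 1, 2 and 3, against 52.7, 69.0 and 67.1 CPM in the empty-vector replicates (log2 difference -0.81 ± 0.21, adjusted p = 1.0 by edgeR). Wild-type Snai1 cells averaged 81.5 CPM there, above both groups. Tff1, a secreted trefoil peptide, had 40.9, 27.1 and 22.0 CPM in mutant cells, against 49.0, 54.1 and 52.9 CPM (-0.76 ± 0.22). At both genes the mutant replicates 2 and 3 were the low libraries.

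At Gbp10, Gbp11, Igkv14-111, Nudt16l1, Septin3, Tnfrsf1b and Tifab the empty-vector replicates 2 and 3 were the high libraries. Gbp10 and Gbp11 belong to a cluster of interferon-induced GTPases on chromosome 5 whose close copies can split reads. Gbp10 had 6.87, 6.85 and 6.33 CPM in mutant cells, against 9.81, 20.5 and 19.7 CPM (-1.17 ± 0.32), and Gbp11 had 19.8, 20.6 and 16.2 CPM in mutant cells, against 24.0, 50.8 and 54.3 CPM (-1.03 ± 0.29). Igkv14-111, a variable segment of the immunoglobulin kappa locus, had 5.68, 5.26 and 4.73 CPM in mutant cells, against 8.0, 20.1 and 20.1 CPM (-1.44 ± 0.36). Nudt16l1 had 45.7, 34.8 and 36.4 CPM in mutant cells, against 50.0, 95.7 and 92.0 CPM (-0.89 ± 0.27). In wild-type replicates 2 and 3 Gbp10 had 7.03 and 6.75 CPM, Gbp11 17.6 and 18.6 CPM, Igkv14-111 5.59 and 8.02 CPM and Nudt16l1 35.9 and 31.7 CPM. All of these lay nearer to mutant than to empty-vector replicates 2 and 3, as did Septin3, with a mean of 31.0 CPM, while Tnfrsf1b (43.2 CPM) and Tifab (56.0 CPM) lay nearer to the empty vector.

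Septin3, a cytoskeletal GTPase, had 33.5, 23.6 and 23.1 CPM in mutant cells, against 34.7, 61.4 and 58.2 CPM (-0.82 ± 0.25), so replicate 1 hardly differed. Tnfrsf1b, a receptor for tumour necrosis factor, had 37.8, 31.6 and 27.6 CPM in mutant cells, against 40.3, 64.1 and 58.5 CPM (-0.65 ± 0.20). Tifab had 46.8, 30.4 and 28.8 CPM in mutant cells, against 52.0, 80.0 and 88.8 CPM (-0.94 ± 0.30). The absolute differences of the 20 named windows ran from 0.07 to 0.53 in replicate 1 and from 0.88 to 2.00 in replicates 2 and 3. None passed the test. Il1b, the gene of the cytokine interleukin 1 beta, was added after its values were seen, as it stands at a higher level. It had 152, 139 and 133 CPM in mutant cells, against 107, 79.1 and 79.5 CPM (log2 difference 0.60 ± 0.19, adjusted p = 1.0 by edgeR), and its start lies within 5 kb of the antisense gene Il1bos, with which it shares reads.

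**Figure D4:**
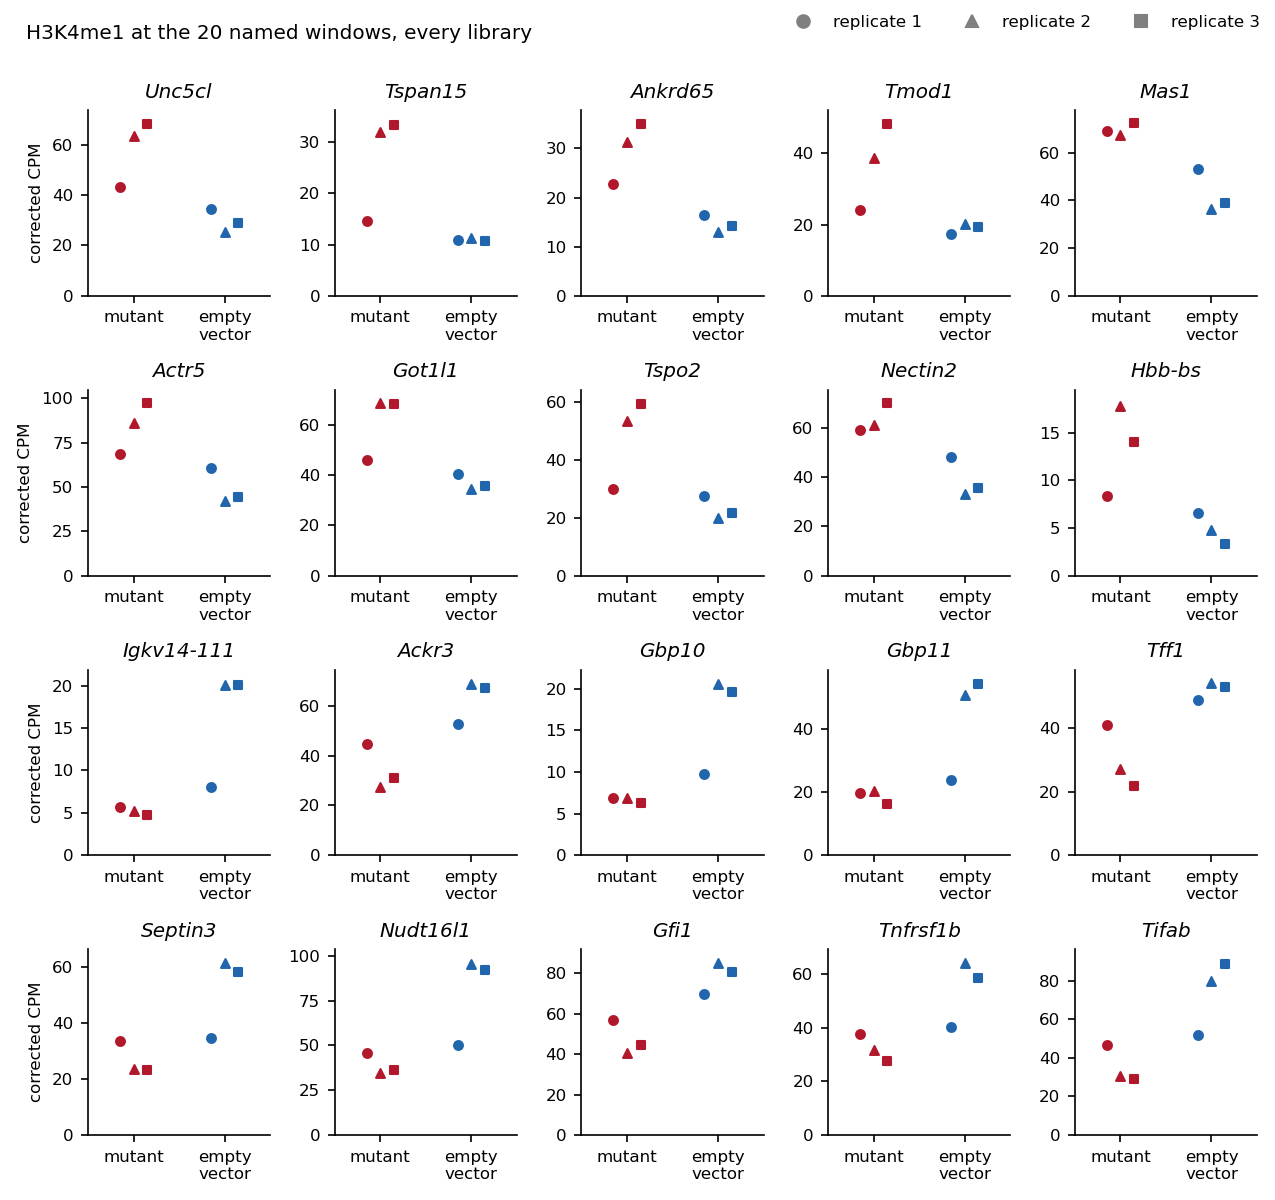
H3K4me1 level in corrected CPM (vertical axis) in each mutant (left, red) and empty-vector (right, blue) library at the 20 windows with the smallest p whose libraries did not overlap; circles, triangles and squares are replicates 1, 2 and 3. In most panels the circles of both groups lie close together, as for Septin3 (33.5 CPM in mutant and 34.7 CPM in empty-vector cells), and the replicates 2 and 3 lie apart.

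Of the windows named by the smallest p or by an agreeing direction (the second rule, given below), 6 had a mutant Snai1 peak within 5 kb of either gene end: Ankrd65, Nectin2, Ackr3, Septin3, Tnfrsf1b and Tmc7. For the 4 with the largest absolute difference among those in RefSeq's promoter table, the promoter is shown, since Snai1 binds E-boxes there: the 300 bases from 250 before to 50 after the first listed RefSeq start on GRCm38.p6. The counts come without window coordinates, so the mark may have been counted around another start of the gene. The letters searched are CAGGTG on either strand (CACCTG is its reverse complement), the E-box bound by Snai1, printed in capitals where present. The order is that of the absolute log2 difference.
Ankrd65, chr4:155790922-155791221, plus strand, an ankyrin-repeat protein: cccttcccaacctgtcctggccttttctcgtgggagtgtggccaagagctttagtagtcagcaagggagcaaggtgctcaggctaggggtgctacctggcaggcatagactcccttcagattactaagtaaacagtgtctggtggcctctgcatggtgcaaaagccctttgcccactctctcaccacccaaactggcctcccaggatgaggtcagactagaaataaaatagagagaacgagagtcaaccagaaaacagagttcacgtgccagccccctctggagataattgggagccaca
Ackr3, chr1:90203730-90204029, plus strand, the chemokine scavenger: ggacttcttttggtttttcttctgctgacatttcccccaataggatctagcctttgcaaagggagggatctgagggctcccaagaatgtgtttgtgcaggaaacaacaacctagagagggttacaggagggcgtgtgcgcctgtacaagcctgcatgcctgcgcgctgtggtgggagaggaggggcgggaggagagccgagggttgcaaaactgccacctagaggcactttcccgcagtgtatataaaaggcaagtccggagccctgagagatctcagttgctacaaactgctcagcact
Tmc7, chr7:118584637-118584936, minus strand, a channel-like membrane protein: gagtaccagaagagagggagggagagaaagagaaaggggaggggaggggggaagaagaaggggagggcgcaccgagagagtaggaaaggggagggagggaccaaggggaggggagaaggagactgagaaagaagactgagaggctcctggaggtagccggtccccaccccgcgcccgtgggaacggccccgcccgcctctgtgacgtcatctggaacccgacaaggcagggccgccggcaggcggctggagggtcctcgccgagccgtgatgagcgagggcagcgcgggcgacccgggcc
Tnfrsf1b, chr4:145246821-145247120, minus strand, the tumour necrosis factor receptor: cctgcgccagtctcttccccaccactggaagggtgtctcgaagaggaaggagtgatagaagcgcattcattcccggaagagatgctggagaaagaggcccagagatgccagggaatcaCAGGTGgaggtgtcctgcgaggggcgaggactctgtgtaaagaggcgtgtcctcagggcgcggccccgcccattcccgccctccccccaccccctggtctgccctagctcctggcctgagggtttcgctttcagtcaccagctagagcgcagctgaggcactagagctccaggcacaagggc
The E-box letters are in the printed bases of Tnfrsf1b and not in those of the other 3. They are in 20.0% of the 27025 first-listed promoters of RefSeq's table, in 19.5% of those of tested windows, and in 20.1% of the 4528 with a mutant Snai1 peak within 2.5 kb of the start. In these 4 genes the peak lies away from the printed bases, at 12.3 kb (Ankrd65), 12 kb (Ackr3), 51.5 kb (Tmc7) and 35.4 kb (Tnfrsf1b) from the start, near the other gene end. Tnfrsf1b has the strongest of these peaks, with the authors' fold enrichment of 21.3 and -log10 q of 73.5 at chr4:145211064-145211519. Its H3K4me1 difference was -0.65, while Ankrd65, with a fold enrichment of 5.25, had 0.98, so the direction differed between genes with a peak.

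Genes near mutant Snai1 peaks had a median H3K4me1 difference close to 0. Of 24170 windows with gene coordinates, 7148 (29.6%) lay near a mutant peak, and 7033 of them near no empty-vector peak. Their median log2 difference was -0.01, with 3339 higher and 3809 lower in mutant cells, against -0.00 for the 17022 windows near none. In replicate 1 their median was 0.09, and in replicates 2 and 3 it was -0.04. Scaled by level these became -0.02 and 0.02. Genes near a peak had higher H3K4me1 over mutant and empty-vector libraries together, a median of 60.1 CPM against 12.1 CPM for those near none. Above the level floor, those near none had 29.5 CPM. Unadjusted p under 0.05 was found at 0.797% of windows near a mutant peak and at 2.11% of windows above the level floor near none.

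A second rule took windows that differed in the same direction in replicate 1 and in replicates 2 and 3, and ranked them by the smaller difference. Higher in mutant cells were Creb3l2, Tmc7, Ldb3, Bsx, Iqsec3, Mir365-2, Mill2, Otub2, Ttc39c and Ncam2, and lower were Mir3102, Gbp8, Prdx6b, Srrm4os, Bgn, Kcnk10, mt-Rnr1, Olfr1258, Serpinb9b and mt-Rnr2. The rule fixes the agreement of sign. Most had few reads. Creb3l2, a transcription factor of the secretory pathway, had 7.00, 20.9 and 21.8 CPM in mutant replicates 1, 2 and 3, against 3.56, 7.29 and 7.35 CPM in the empty-vector replicates, with log2 differences of 0.96 in replicate 1 and 1.52 in replicates 2 and 3 (1.54 ± 0.54 over all, adjusted p = 1.0 by edgeR). Both groups were lowest in replicate 1, and they overlapped, since mutant replicate 1 lay below empty-vector replicates 2 and 3. Ttc39c, a tetratricopeptide repeat protein, had 11.4, 13.4 and 19 CPM in mutant cells, against 7.64, 7.87 and 4.77 CPM, without overlap (1.06 ± 0.44). Creb3l2 and Ttc39c were also higher for H3K4me2 in replicates 2 and 3, by 2.16 and 2.02, and differed by -0.24 and 0.10 in replicate 1.

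Otub2 and Kcnk10 lie on chromosome 12 beyond the stretch. Otub2, a deubiquitinase, had a log2 difference of 0.95 after correction by chromosome and 1.21 after correction by stretch, and Kcnk10, a potassium channel, had -0.88 and -0.69. The sign held in both. Gbp8, of the same cluster as Gbp10 and Gbp11, had 2.72, 4.92 and 6.80 CPM in mutant cells, against 4.68, 14.2 and 11.5 CPM. Mir3102, a microRNA gene, had 5.56, 7.83 and 10.4 CPM in mutant cells, against 10.6, 14.3 and 19.2 CPM, with log2 differences of -0.90 and -0.91 in replicate 1 and in replicates 2 and 3. The mitochondrial ribosomal RNA genes mt-Rnr1 and mt-Rnr2 moved with the other mitochondrial genes.

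The list of red cell and platelet genes had mostly positive differences, that is, more H3K4me1 in mutant cells. The larger ones were mostly at red cell genes, and most platelet genes lay near 0. Of 36 genes, 35 were tested. None passed, and 28 had a positive log2 difference. By edgeR 6 had an unadjusted p under 0.05 in the higher and 1 in the lower direction, against 0.859% and 0.556% of all windows. Without overlap 7 were higher and 1 lower, against the 4.62% and 2.85% of all windows. The median was 0.16, against -0.01 for all windows, of which 48.8% were positive. It was 0.17 in replicate 1 and 0.27 in replicates 2 and 3, or 0.08 and 0.20 when scaled by level, and 0.10 to 0.28 over the 23 other settings. The largest positive differences were at Hbb-y, Hbb-bs and Alas2, of globin and haem synthesis. Alas2, the red cell enzyme that starts haem synthesis, had 15.8, 30.3 and 41.3 CPM in mutant replicates 1, 2 and 3, against 13.2, 16.6 and 14.5 CPM in the empty-vector replicates (1.00 ± 0.38, adjusted p = 1.0 by edgeR). Klf1, the activator of adult globin genes, had 72.4, 80.1 and 89.4 CPM in mutant cells, against 62.6, 56.6 and 58.5 CPM (0.42 ± 0.17). All 3 mutant libraries were above all 3 empty-vector libraries at Klf1.

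Fech, which puts iron into haem, had 84.2, 96.0 and 121 CPM in mutant cells, against 70.6, 66.8 and 63.1 CPM. Slc4a1, the anion exchanger of red cells, had 28.4, 27.7 and 29.6 CPM in mutant cells, against 25, 19 and 17.5 CPM. Both genes were higher in every mutant library than in any empty-vector library. Of the platelet genes, Gp1bb, a subunit of the receptor for von Willebrand factor, had the most negative difference, with 23.3, 19.5 and 19.8 CPM against 26.2, 27.8 and 36.7 CPM (-0.50 ± 0.21). Itga2b, a platelet integrin, had -0.05 ± 0.18. Itgb3, Gp1ba, Gp9, Pf4 and Ppbp had log2 differences of 0.00, 0.01, -0.04, 0.03 and 0.03. In replicate 1 they had 0.34, 0.30, 0.30, 0.29 and 0.16, and in replicates 2 and 3 -0.18, -0.07, -0.21, -0.12 and -0.04. Vwf was positive in both, with 0.53 and 0.58. Gata1, the regulator of both lineages, had 90.9, 69.8 and 69.3 CPM in mutant cells, against 69.0, 59.9 and 62.1 CPM (0.24 ± 0.17). Of the windows named here, Klf1, Fech and Slc4a1 had an adjusted p of 1.0.

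Myeloid genes had mostly negative differences in replicates 2 and 3, and mostly positive ones in replicate 1. Of 42 genes 41 were tested. None passed, 5 had a positive and 36 a negative log2 difference, and the median was -0.15. In replicates 2 and 3 it was -0.26, with 37 of 41 lower in mutant cells, while in replicate 1 it was 0.18, with 29 of 41 higher. Scaled by level, the medians were -0.24 and 0.03. Gfi1 had the smallest p of the list and Cybb the most negative difference. Irf8, which drives monocyte and dendritic cell fates, had 39.8, 31.4 and 36.9 CPM in mutant replicates 1, 2 and 3, against 40.6, 66.1 and 60.5 CPM in the empty-vector replicates (-0.52 ± 0.19, adjusted p = 1.0 by edgeR). Cybb, a subunit of the phagocyte oxidase, had 5.35, 10.3 and 9.43 CPM in mutant cells, against 7.87, 23.1 and 22.5 CPM (-0.92 ± 0.44). The mutant libraries lay below all empty-vector libraries at Irf8, and overlapped them at Cybb.

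The difference was negative in both sets of replicates at 11 of the 41 myeloid genes and positive in both at 3. S100a9, a calcium-binding protein of neutrophils, had -0.68 in replicate 1 and -0.29 in replicates 2 and 3, or -0.46 and -0.41 when scaled by level. It lay near the level floor, with 4.45, 5.00 and 5.06 CPM in mutant cells, against 7.16, 5.46 and 6.75 CPM. Adgre1, the macrophage antigen F4/80, had -0.48 in replicate 1 and -0.63 in replicates 2 and 3. Ltf and Cx3cr1 were among those with opposite signs. Ltf, the lactoferrin of neutrophil granules, had 51.9, 32.9 and 33.5 CPM in mutant cells, against 41.4, 72.8 and 62.0 CPM. Cx3cr1, a monocyte chemokine receptor, had 70.4, 32.2 and 36.7 CPM in mutant cells, against 59.4, 62.5 and 67.8 CPM. Csf3r, the receptor for the neutrophil growth factor, was positive in both, with 134, 87.4 and 86.6 CPM in mutant cells, against 104, 70.1 and 68.8 CPM (0.25 ± 0.24). The regulators Spi1 and Cebpa had log2 differences of -0.13 and -0.17, positive in replicate 1 (0.18 and 0.22) and negative in replicates 2 and 3 (-0.33 and -0.42). The mast cell and basophil list had 17 of 26 genes positive, a median of 0.09, and medians of 0.23 in replicate 1 and 0.07 in replicates 2 and 3. Ms4a2, a chain of the IgE receptor, had 37.4, 52.3 and 44.5 CPM in mutant cells, against 36.6, 20.8 and 21.4 CPM (0.64 ± 0.25), and Hdc, which makes histamine, had 40.1, 36.5 and 37.4 CPM, against 33.5, 27.5 and 28.0 CPM (0.31 ± 0.17). The prostaglandin enzyme Hpgds had -0.35 ± 0.18.

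**Figure D5:**
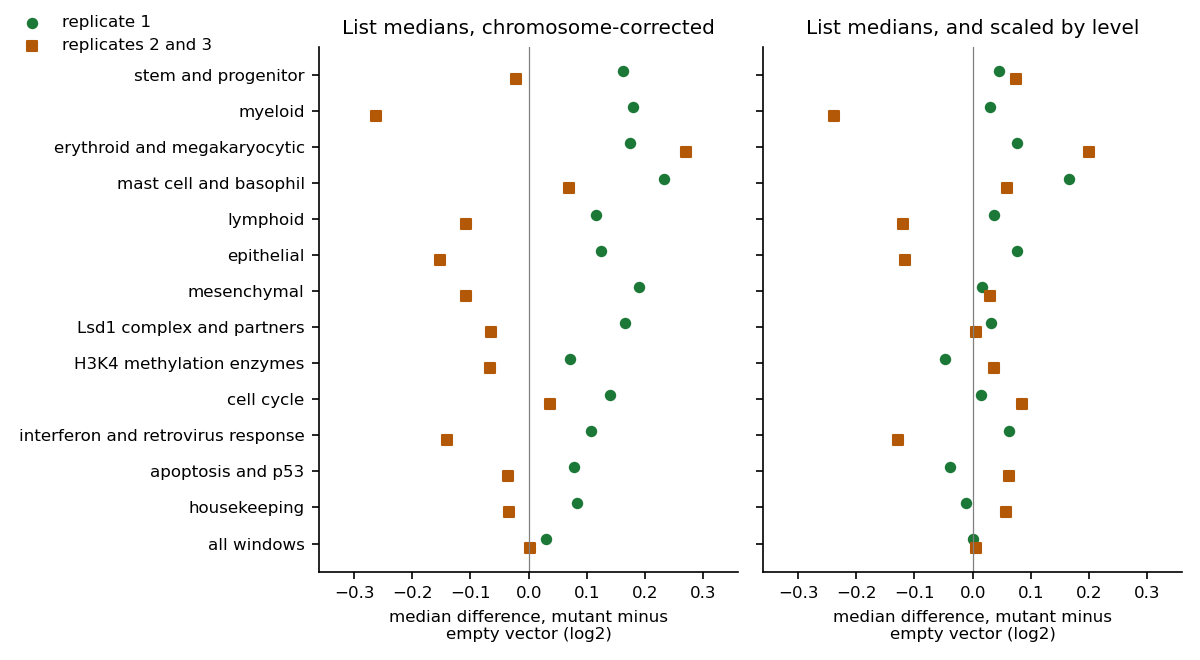
Median log2 difference in H3K4me1, mutant minus empty vector (horizontal axis), of each gene list and of all windows (vertical axis), in replicate 1 (green circles) and in replicates 2 and 3 (brown squares), corrected by chromosome (left) and scaled by level as well (right). The red cell list is right of 0 in both (0.17 and 0.27, or 0.08 and 0.20 scaled by level), and the myeloid list is at -0.26 in replicates 2 and 3 and 0.18 in replicate 1.

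Epithelial genes, the class that Snai1 is known to repress, held no window that passed. Of 32 tested, 10 were positive, 5 were higher and 3 lower without overlap (4.62% and 2.85% of all windows), and the median was -0.11 (0.13 in replicate 1 and -0.15 in replicates 2 and 3). Esrp2, an epithelial splicing regulator, had 65.0, 81.2 and 83.1 CPM in mutant replicates 1, 2 and 3, against 56.8, 53 and 54.5 CPM in the empty-vector replicates (0.47 ± 0.17, adjusted p = 1.0 by edgeR). Dsp, the desmosomal plakin, had 25.3, 13.6 and 5.91 CPM in mutant cells, against 25.9, 26.3 and 28.7 CPM (-0.81 ± 0.43). All mutant libraries were above all empty-vector libraries at Esrp2, while mutant replicate 1 was level with the empty vector at Dsp. Of the mesenchymal list, 13 of 27 were positive, with a median of -0.02. Its median was 0.19 in replicate 1 (19 positive) and -0.11 in replicates 2 and 3 (11 positive), or 0.02 and 0.03 when scaled by level. Mmp2, a matrix protease, had 90.5, 47.5 and 48.5 CPM in mutant cells, against 68.2, 83.5 and 78.2 CPM, higher in replicate 1 and lower in replicates 2 and 3.

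The stem and progenitor list had 13 of 30 positive and a median of -0.02. Its median was 0.16 in replicate 1 (26 positive) and -0.02 in replicates 2 and 3 (14 positive), or 0.05 and 0.07 when scaled by level. Gata2, a regulator of blood stem cells, had 231, 49.2 and 58.0 CPM in mutant replicates 1, 2 and 3, against 181, 104 and 98.8 CPM in the empty-vector replicates (-0.32 ± 0.56), with 0.35 in replicate 1 and -0.95 in replicates 2 and 3. Lmo2, a partner of Tal1, had 107, 113 and 109 CPM in mutant cells, against 83.9, 105 and 104 CPM (0.21 ± 0.17). Lmo2 was higher in each mutant library, and Gata2 changed sign. The lymphoid list had 7 of 26 positive and a median of -0.07. Its median was 0.12 in replicate 1 (17 positive) and -0.11 in replicates 2 and 3 (5 positive), or 0.04 and -0.12 when scaled by level. Il7r, the interleukin 7 receptor chain, had 6.30, 7.43 and 9.72 CPM in mutant cells, against 7.28, 23.8 and 24.7 CPM (-1.05 ± 0.42), and Zap70, a T cell kinase, had 126, 57.6 and 60.4 CPM, against 115, 114 and 115 CPM.

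The lists of the enzymes themselves were close to 0. The Lsd1 complex and its partners had 11 of 24 positive and a median of -0.00, with 0.17 in replicate 1 and -0.06 in replicates 2 and 3. Apart from Gfi1, the corepressor Ctbp1 had 77.9, 91.7 and 91.4 CPM in mutant cells, against 82.6, 70.5 and 68.0 CPM (0.19 ± 0.17). Enzymes of H3K4 methylation had 11 of 23 positive and a median of -0.01. Their median was 0.07 in replicate 1 and -0.07 in replicates 2 and 3, or -0.05 and 0.04 when scaled by level. The core subunit Wdr5 had 0.15 ± 0.16 and the methyltransferase Setd1b -0.33 ± 0.40. Cell cycle genes had 15 of 30 positive and a median of 0.00. Their median was 0.14 in replicate 1 (21 positive) and 0.04 in replicates 2 and 3 (17 positive), or 0.01 and 0.09 when scaled by level. Rb1, the retinoblastoma gene, had 56.5, 78.3 and 80.2 CPM in mutant cells, against 57.2, 51.5 and 52.4 CPM.

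Interferon and retrovirus response genes had 11 of 29 positive, a median of -0.05, and 2 higher and 1 lower without overlap (4.62% and 2.85% of all windows). Their median was 0.11 in replicate 1 (20 positive) and -0.14 in replicates 2 and 3 (8 positive), or 0.06 and -0.13 when scaled by level. Rsad2, the antiviral enzyme viperin, had 108, 26.8 and 25.7 CPM in mutant replicates 1, 2 and 3, against 93.8, 85.2 and 79.4 CPM in the empty-vector replicates (-0.71 ± 0.51). It lies in the chromosome 12 stretch, and the value corrected by stretch is -0.79. Without mutant replicate 1 it passed, at a log2 difference of -1.74. Apoptosis and p53 genes had 12 of 25 positive and a median of -0.03. Their median was 0.08 in replicate 1 and -0.04 in replicates 2 and 3, or -0.04 and 0.06 when scaled by level. Perp, a p53 target in cell junctions, had 17.6, 33.1 and 32.0 CPM in mutant cells, against 19.3, 13.9 and 18.2 CPM. Housekeeping genes had 11 of 26 positive and a median of -0.03. Their median was 0.08 in replicate 1 and -0.03 in replicates 2 and 3, or -0.01 and 0.06 when scaled by level. None of the 13 lists held a window that passed the test in either direction.

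The H3K4me2 libraries differed in the same direction as H3K4me1 in replicates 2 and 3. Of the 380 windows above the level floor that differed by 2-fold or more in H3K4me1 in replicates 2 and 3, 362 (95.3%) had the same sign of difference in H3K4me2 replicates 2 and 3, against 67.6% of all 19923 windows above the floor. In H3K4me1 replicate 1, 198 of the 380 had the same sign. The median H3K4me2 difference was 1.07 at the 205 that were higher in mutant cells and -0.63 at the 175 that were lower. Wild-type Snai1 cells lay nearer to the empty vector at 159 of those 205, and nearer to the mutant at 120 of those 175. They lay nearer to the mutant at 22.4% of the 205 and 68.6% of the 175, against 46.6% of all 19923 windows above the floor. The windows were picked by the difference between mutant and empty vector, which can itself move these shares, and its part was not tested. The labels do not say whether both marks were taken from the same cultures.

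The difference between marks was tested in one model. Of 26008 windows, 0 (0.0%) passed, and 137 (0.527%) had an unadjusted p under 0.05 by edgeR. Among the windows named above, Nudt16l1, Tmc7, Mir3102, Srrm4os and Klf1 had an unadjusted p under 0.05 for this difference, and none of them passed. Nudt16l1 differed by -1.42 in H3K4me1 and -0.42 in H3K4me2 in replicates 2 and 3. In replicates 2 and 3 alone 735 windows passed, 250 with a more positive difference in H3K4me1 and 485 with a more negative one. Against wild-type Snai1 in the same fit, 0 of 25728 windows (0.0%) passed for mutant cells, and 1184 (4.6%) had an unadjusted p under 0.05. This comparison shares the mutant libraries with the one above.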

How the data were processed

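ChIP-seq counts of H3K4me1 in 6 libraries (3 mutant Snai1, 3 empty vector) and 3 of wild-type Snai1 were analysed. The authors deposited raw read counts per window, 1 row per Entrez gene ID, per the submitters' processing notes with Subread and featureCounts on GRCm38 (mm10), versions not given in the sources used here. Windows are 5 kb around the start by the table's name, and a strand is not stated. Of 27095 rows, 25204 (93.0%) matched a symbol in RefSeq (GRCm38.p6). 31 repeated rows and 20 empty rows were left out, and 27044 remained. Starts within 5 kb of each other can share reads. The deposited peak lists hold the authors' fold enrichment (a ratio) and -log10 q from MACS2 per peak, 1 list per construct with no replicate check. Duplicate removal is not given in the sources used here.

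Counts were tested with edgeR 4.0.16 (R 4.3.3; quasi-likelihood test, TMM, filterByExpr, Benjamini-Hochberg over all windows, two-sided, 0.05) over 8 samples, the empty-vector replicates 2 and 3 being summed. The median shift of each library on each chromosome, over windows with a mean of at least 20 reads, went into the offsets. Corrected CPM are on the TMM-scaled size with this shift removed. Differences within replicates use a pseudocount of 0.5 reads. The difference between marks was the interaction of mark and construct. DESeq2 1.42.0 was an alternative. The method was tested on simulated data. These held no difference between replicate 1 and replicates 2 and 3 at single windows. How the method performs with that split was thus not tested.

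Same-numbered mutant and empty-vector libraries deviated together (correlations over windows of 0.566, 0.353 and 0.36 for replicates 1, 2 and 3). The split of replicate 1 from replicates 2 and 3 in both groups can give such values, and libraries of unlike number were not correlated. The variance from mutant replicate 2 was 6.57 to empty-vector replicate 2 and 6.56 to replicate 3. A pairing by number within replicates 2 and 3 was thus not shown. A fit with the replicate block was an alternative. Named were Snai1, Kdm1a, Gfi1 and Gfi1b, the 10 windows per direction with the smallest p without overlap, a level over 5.78 CPM in the higher group and no predicted gene, the 10 per direction with the largest agreeing difference and at least 50 reads in each set of replicates, and list members with the smallest p. Other genes were added after their values were seen. The members, lists and rules were chosen with earlier results of these data known. Precision is set by the read counts and the number of libraries. Some results are not reported here.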

Additional observations from a re-analysis of the deposited data

How the results depend on the processing

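Under the alternatives, the 0 passing windows stayed 0 with no chromosome correction, a running median over neighbouring windows, DESeq2's size factors, DESeq2's test, silent-family scaling, no filter, the 6 compared libraries only, empty-vector replicates kept apart, correction by stretch and level-dependent scaling. With the replicate block 0 passed (1679 at an unadjusted p under 0.05, smallest adjusted p 0.207), and it changed no call, also for the difference between marks (0 passed). The count was 5 with the term for replicate 1, 7 with that term and no chromosome correction, 5 with it and correction by stretch, 5084 in replicates 2 and 3 alone, and 0 to 33 when each library was left out, the 33 without mutant replicate 1. For the difference between marks it was 735 in replicates 2 and 3 alone. Replicate 1 alone allows no test. Genes near a mutant peak kept a median of -0.00 to -0.01 with peaks of -log10 q of at least 10, within 1 kb, or within 2.5 kb of the start. Of 2852 log2 values at named windows, 26 changed sign and moved by more than the standard error. In replicate 1 alone they were 0.41 at Gfi1b, 0.0985 at Cd34, 0.35 at Gata2, 0.0823 at Hpgds, 0.11 at Zap70, -0.31 at Cdh11, 0.39 at Mmp2, -0.10 at Ctbp1, 0.18 at Kdm1b, -0.20 at Ncoa6, -0.0172 at Rb1, 0.17 at Cdkn1c, -0.46 at Cxcl10, 0.20 at Rsad2, -0.14 at Perp, 0.0807 at Zmat3, 0.0313 at Polr2a and 0.0441 at Rps18. With a library left out they ran from -0.26 to 0.44 at Snai1, -0.49 to 0.40 at Tek, -0.42 to 0.28 at Tal1, -0.704 to 0.0589 at Il3ra, -0.53 to 0.054 at Ctbp2, -0.90 to 0.27 at Setd1b and -0.355 to 0.0636 at Rbl1. With the running median Cd34 had 0.077. Of 299 list medians 25 moved beyond the spread between replicates. The settings by level and by stretch, also with the replicate term, were chosen after the data were seen. The cause was not tested. Both the number of libraries and their depth bound the precision, and their parts were not separated.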
